A study of Mus musculus with 26 samples.

Results

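A set of 10 genes that mark antigen-presenting cells and macrophages were followed across every group of a mouse islet study: the MHC class II genes H2-Aa, H2-Ab1 and H2-Eb1, Cd74, the complement subunit genes C1qa, C1qb and C1qc, Csf1r, Cd68 and Mrc1. All 10 are among the 12580 genes tested. They were chosen by name for their function, and each is represented by the brightest of the probe sets that the array annotation assigns to that gene alone (19 probe sets in all). The islets came from male C57BL/6J mice aged 5 weeks (young) or 56 weeks (old), with no genetic change named, and total RNA of each sample was measured on 1 Affymetrix array. Some islets were used fresh. The rest, apart from a time course, had a recovery of 1 day in 11 mM glucose. They then had 2 days of culture in 3, 5.5 or 11 mM, or in 16 mM for young islets alone. In the time course, young islets were taken after an overnight period at 3 mM (time 0) and after 1 h and 4 h at 11 mM. No recovery day or days of culture are listed for these samples, which are counted among the cultured arrays below. There were 26 arrays in 12 groups: 4 for the young 11 mM culture and 2 for every other group. Replicates are biological by their labels, the number of mice behind each is not given, and every p-value measures the spread between these samples.

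Class II molecules present peptides from engulfed material to helper T cells. H2-Aa and H2-Ab1 encode the alpha and beta chains of the I-A molecule, H2-Eb1 the beta chain of I-E, and Cd74 the invariant chain that guards the peptide groove on the way to the endosome. C1q, built from the products of C1qa, C1qb and C1qc, is the recognition unit of the classical complement pathway and is made largely by macrophages. Csf1r is the receptor for the macrophage growth factor CSF1, Cd68 a glycoprotein of the macrophage endosome and lysosome, and Mrc1 the mannose receptor. Mouse islets hold resident macrophages that carry class II molecules, and their dendritic cells, B cells and, when stimulated, endothelial cells can carry them too. In whole islets, fewer cells of a type and less RNA per cell cannot be told apart.

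Values are given as signal, the intensity the authors deposited after scaling every array to the same average. Changes are log2 differences of signal + 16 with their standard error (SE) from limma, and a gene is said to rise or fall where its p, adjusted over all 12580 genes, is under 0.05. The offset of 16 makes a change smaller where the signal is low. Probe sets differ in brightness, so signals are compared between samples and never between genes. Whether arrays of different groups overlap is given as a description. The share of all genes that separate in the same way is not given here.

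The arrays form a pair of sets for which the labels have no name. The 5' to 3' signal ratio of the Gapdh control, which falls as the labelled RNA gets shorter, was 1.03 to 1.48 on the 12 arrays of set A and 0.1 to 0.277 on the 14 arrays of set B. Set A comprises every array of old islets, both of fresh young islets and replicates 3 and 4 of the young 11 mM culture, and set B holds the other young islets. Old islets in culture can therefore be compared with fresh old islets within set A, and young islets at 11 mM through replicates 3 and 4. The other young cultures share no set with fresh islets, and a difference between them was not tested here. Where their values are set beside fresh islets below, the array set differs as well. All 13 measured islet endocrine genes were above the array median on at least 2 arrays. Of 35 measured macrophage marker genes other than the 10, 29 were, but Itgam read at most 9 and Cd163 at most 17, with 0 on 1 array for Itgam and on 4 for Cd163.

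The class II genes were high in fresh islets and low in every culture. H2-Aa read 1580 and 1456 in fresh young islets and 1902 and 2246 in fresh old islets. It read 436 and 181 in old islets at 3 mM, 342 and 236 at 5.5 mM and 349 and 229 at 11 mM. In young islets it read 210, 124, 370 and 367 at 11 mM, 182 and 119 at 3 mM, 163 and 153 at 5.5 mM and 193 and 86 at 16 mM. The time course groups had the lowest means, with arrays at 114 and 62 (time 0), 99 and 56 (1 h) and 86 and 55 (4 h). The lowest of the 4 fresh arrays, 1456, stood above the highest of the 22 cultured arrays, 436. The fresh arrays are all of set A, whereas 14 of the cultured arrays are of set B.

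H2-Ab1 read 349 and 329 in fresh young islets and 365 and 456 in fresh old islets. Old cultures read 159 and 81 at 3 mM, 115 and 86 at 5.5 mM and 97 and 98 at 11 mM, and young islets at 11 mM read 45, 35, 104 and 101. H2-Eb1 read 503 and 507 in fresh young and 687 and 772 in fresh old islets, against 188 and 81, 166 and 88, and 133 and 119 in old islets at 3, 5.5 and 11 mM. Its young cultures at 11 mM read 56, 61, 127 and 91. For these genes as well the fresh and cultured arrays did not overlap: the cultured arrays reached 159 for H2-Ab1 and 188 for H2-Eb1. Cd74 was separated by less, with 141 and 131 in fresh young and 219 and 256 in fresh old islets against 45 to 115 on the 22 cultured arrays. At 11 mM Cd74 read 92 and 59 in old and 83, 68, 62 and 70 in young islets.

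**Figure D1:**
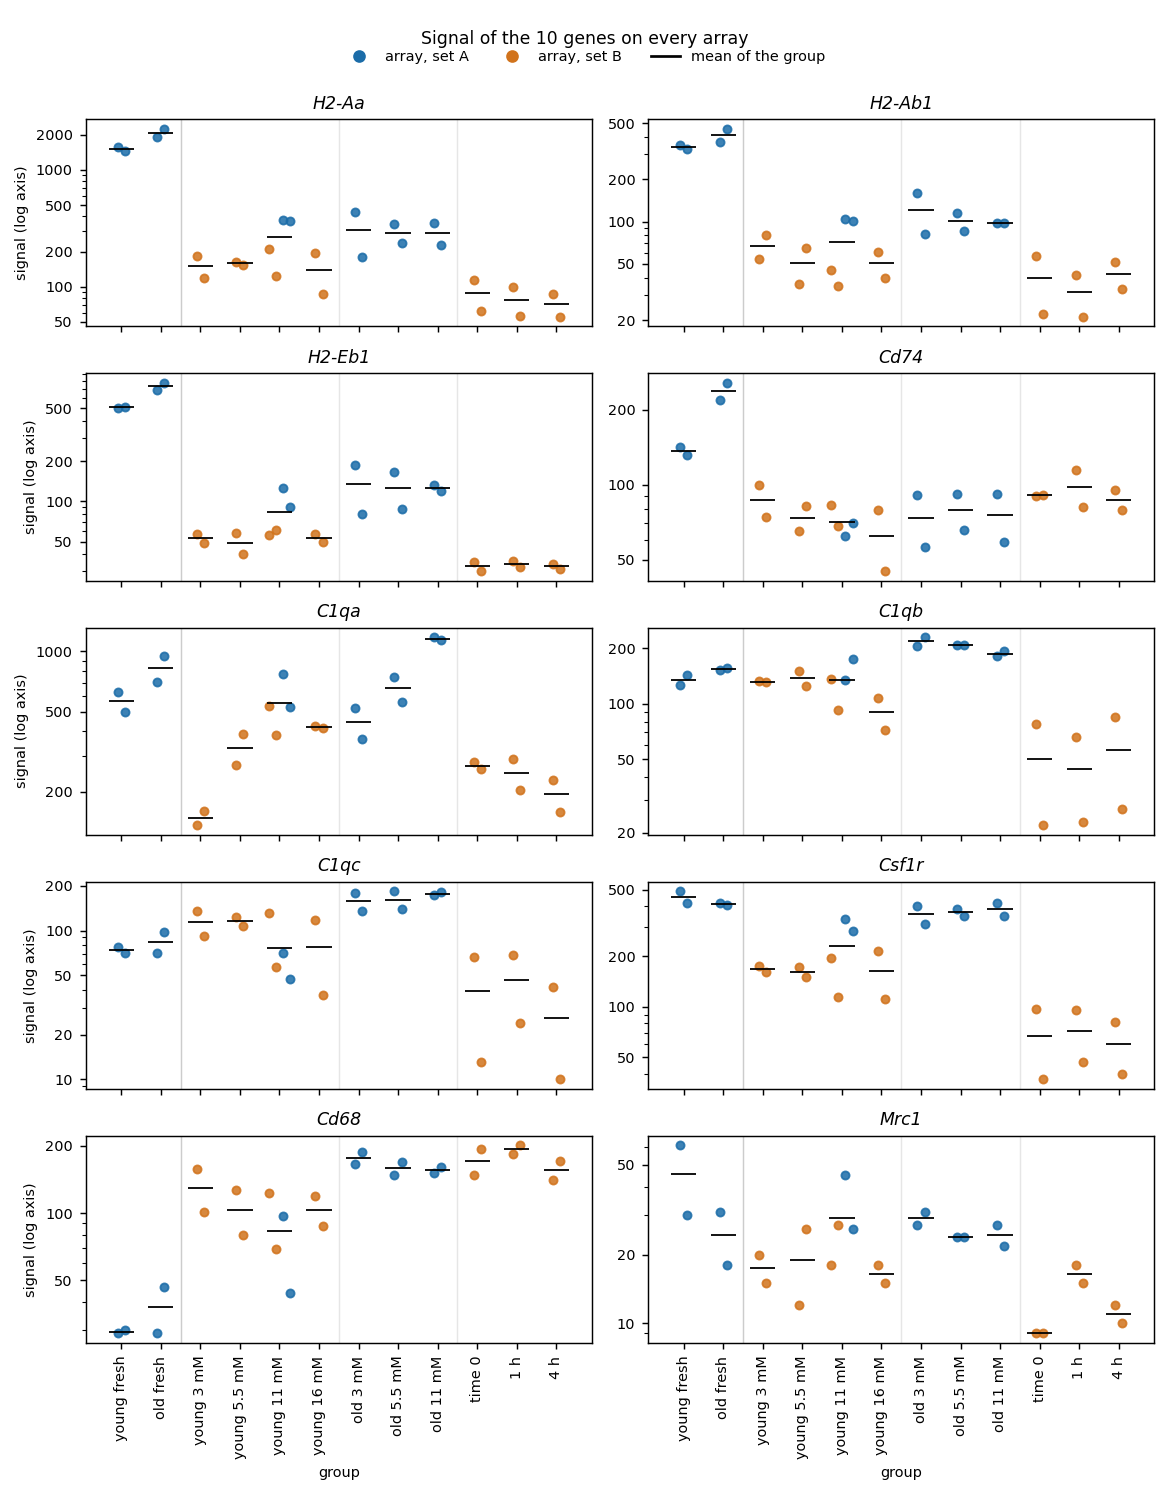
Signal of each of the 10 genes on every array (log axis), by group, with 1 point per array, blue for set A and orange for set B, and a bar at the group mean. H2-Aa, H2-Ab1, H2-Eb1 and Cd74 have all 4 fresh arrays above all 22 cultured arrays (for H2-Aa 1456 and more against 436 and less), whereas the C1q genes and Csf1r overlap between fresh and cultured islets.

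In old islets at 11 mM against fresh, all 4 class II genes fell and Cd68 rose, while the other 5 genes did not pass. H2-Aa changed by -2.80 (SE 0.46, adjusted p = 0.00091, 6.96-fold lower), H2-Eb1 by -2.39 (SE 0.32, adjusted p = 8.85e-05, 5.24-fold), H2-Ab1 by -1.90 (SE 0.40, adjusted p = 0.00953, 3.73-fold) and Cd74 by -1.49 (SE 0.25, adjusted p = 0.000989, 2.81-fold), with n = 2 arrays per group. Of all genes tested, 1.83% fell and 1.03% rose in this comparison, and the median change was 0.02. The 3 other probe sets of H2-Aa changed by -2.60, -1.88 and -2.53 and the 2 others of H2-Ab1 by -2.17 and -1.77. The call of H2-Ab1 was lost whichever of the 4 arrays was left out (adjusted p = 0.0568 to 0.108), with changes of -2.06 to -1.75.

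The fall was alike in size at the lower glucose concentrations, which share the fresh old arrays with the 11 mM comparison. At 5.5 mM H2-Aa changed by -2.79, H2-Eb1 by -2.44, H2-Ab1 by -1.88 and Cd74 by -1.43, and at 3 mM by -2.80, -2.40, -1.70 and -1.53, all 4 passing at both. Of all genes, 4.68% fell and 4.06% rose at 5.5 mM, and 12.8% fell and 10.9% rose at 3 mM. H2-Ab1 did not pass at 5.5 mM without replicate 2 of that group or of the fresh group (adjusted p = 0.0644 and 0.0636), nor at 3 mM without replicate 2 at 3 mM (-1.28, adjusted p = 0.0804). Between 11 and 3 mM in old islets the class II genes differed by at most 0.20 (H2-Ab1, -0.20, SE 0.40, adjusted p = 0.819), and none of the 4 passed.

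In young islets at 11 mM against fresh, the same 4 genes fell and Cd68 rose. H2-Aa changed by -2.55 (SE 0.40, adjusted p = 0.000357), H2-Eb1 by -2.44 (SE 0.28, adjusted p = 8.29e-06), H2-Ab1 by -2.13 (SE 0.35, adjusted p = 0.000636) and Cd74 by -0.81 (SE 0.21, adjusted p = 0.0248), with n = 4 and 2 arrays. Of all genes, 3.49% fell and 3.09% rose. With the array set as a block, where 2.51% of genes fell, H2-Aa changed by -2.0 (adjusted p = 0.00245), H2-Eb1 by -2.07 (4.06e-05), H2-Ab1 by -1.58 (0.00419) and Cd74 by -0.89 (0.0379), so that all 4 passed. Cd74 did not pass without either fresh young array (adjusted p = 0.193 without replicate 1 and 0.123 without replicate 2).

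**Figure D2:**
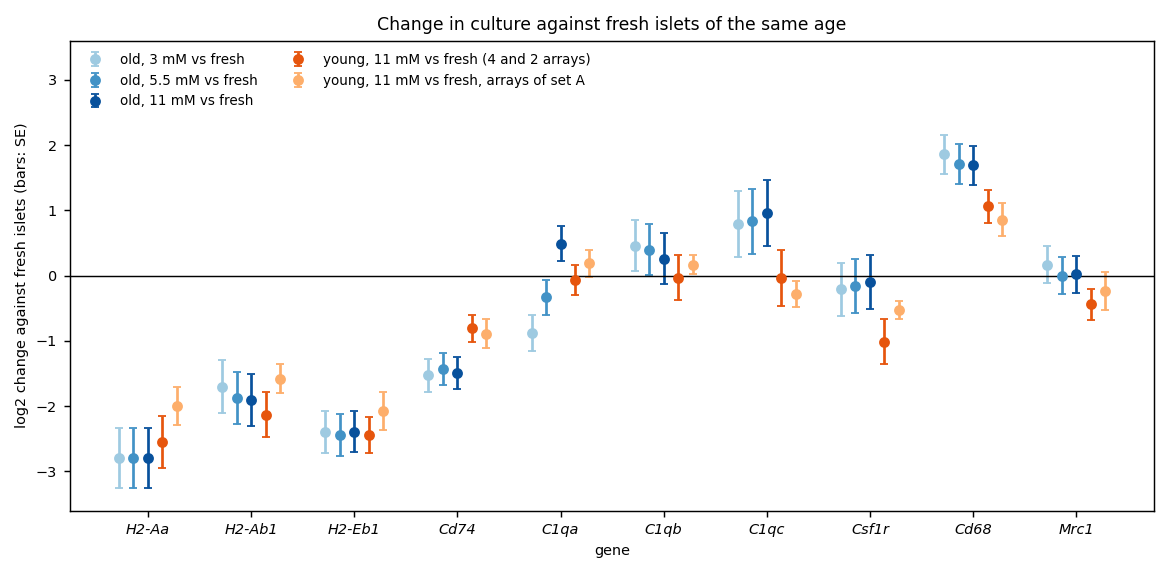
Log2 change of each gene in cultured against fresh islets of the same age, with bars for the SE, for old islets at 3, 5.5 and 11 mM (blue, 2 arrays per group, the fresh arrays shared) and young islets at 11 mM with all arrays (orange) or with those of set A (light orange). The 4 class II genes lie between -2.80 and -0.81, Cd68 lies above 0, and the C1q genes and Csf1r lie between -1.01 and 0.96.

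The class II genes are transcribed from promoters that share an X box, bound by the RFX complex, and a Y box, bound by NF-Y, on which the coactivator encoded by Ciita assembles. Of the 10 genes, 6 had an entry in the RefSeq promoter table (assembly GRCm38.p6, 250 bases before to 50 after the start). H2-Ab1, Cd74, C1qa and Csf1r had none and were not searched. The stretches of H2-Aa and H2-Eb1 are shown because their changes in culture were among the largest of the 10, and those of C1qb and C1qc as genes set against them. All run from 5′ to 3′ on the strand of the gene. Capitals mark CTNGCAAC (X box) and CTGATTGG (core of the Y box) in the class II genes, and ACTTCCT, the reverse complement of AGGAAGT, a PU.1-type motif, in the C1q genes. PU.1 is a transcription factor of macrophages and B cells. Each motif was searched on both strands.
H2-Aa: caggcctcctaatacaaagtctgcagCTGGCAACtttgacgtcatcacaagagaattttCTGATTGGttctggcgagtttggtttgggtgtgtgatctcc
H2-Eb1: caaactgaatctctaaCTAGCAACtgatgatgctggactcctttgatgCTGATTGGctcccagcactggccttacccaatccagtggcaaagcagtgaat
C1qb: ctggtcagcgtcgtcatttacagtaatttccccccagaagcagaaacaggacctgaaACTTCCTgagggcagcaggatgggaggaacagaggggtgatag
C1qc: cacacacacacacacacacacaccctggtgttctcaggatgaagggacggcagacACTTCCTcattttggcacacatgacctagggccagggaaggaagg

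The H2-Aa stretch is chr17:34287834-34287933 on the minus strand and the H2-Eb1 stretch chr17:34305757-34305856 on the plus strand, both from 110 to 11 bases before the start of transcription. The C1qb stretch is chr4:136886211-136886310, over the same distances, and the C1qc stretch chr4:136893065-136893164, from 250 to 151 bases before the start, both on the minus strand. The X box began 84 bases before the start in H2-Aa and 94 in H2-Eb1, and the Y box 51 and 62 bases before it. In 32851 promoter windows of 300 bases, 4.1% held the Y box core, 3.42% the X box letters and 0.18% (59 windows) both, among them H2-Aa and H2-Eb1. The N of the X box letters falls where H2-Aa and H2-Eb1 differ, so these shares are no test of their match. The PU.1-type letters were in 9.35% of the windows and, of the genes with an entry, in C1qb, C1qc and Mrc1. Cd68 held none of the motifs. No motif has a letter in common with another in the windows shown, and a match describes these letters and not a bound site.

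At 11 mM no other tested gene of the class II pathway fell. Of 20 listed genes 19 had a probe set and 10 were tested. In old islets at 11 mM none of the 10 fell and Ctsl, a lysosomal protease, rose by 0.67 (SE 0.11, adjusted p = 0.000926). The median change of the 10 was 0.23, against -2.15 for H2-Aa, H2-Ab1, H2-Eb1 and Cd74. H2-DMa, part of the peptide loading complex, changed by -0.30 (SE 0.30, adjusted p = 0.792), the invariant chain protease gene Ctss by 0.20 (SE 0.44, 0.935), and the RFX subunit genes Rfx5, Rfxap and Rfxank by 0.11, 0.19 and 0.32, with none of these 5 passing (chosen after their values were seen). As the mean of its probe sets Ctsl changed by 0.19 and did not pass (adjusted p = 0.617). Ciita read at most 40 and H2-Ea at most 34, and neither was above the array median on any array. C57BL/6 mice carry a deletion in H2-Ea and make no I-E molecule on the surface. At 5.5 mM in old islets 3 of the 10 rose and 2 fell, and at 3 mM 4 rose and 1 fell, with medians of 0.36 and 0.33. The genes that fell were H2-DMa (-1.32, SE 0.30, adjusted p = 0.0089) and Rfx5 (-0.56, SE 0.17, adjusted p = 0.0414) at 5.5 mM and Rfx5 (-0.52, SE 0.17, adjusted p = 0.0291) at 3 mM. Each of these 3 calls was lost whichever array of its comparison was left out (adjusted p = 0.0524 to 0.27). In young islets at 11 mM the list had 2 genes that rose, no gene that fell and a median of 0.16. Of the 21 tested genes of class I presentation and interferon response, the interferon-induced GTPase gene Iigp1 alone fell in old islets (-1.58, SE 0.27, adjusted p = 0.00125), and the median was 0.01.

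In old islets at 11 mM all 3 C1q genes read higher on both cultured arrays than on both fresh arrays, though none of the 3 passed the test in the fit over all arrays. C1qa read 704 and 953 in fresh old islets, 749 and 558 at 5.5 mM, where fresh and cultured arrays overlapped, and 1180 and 1136 at 11 mM. C1qb read 152 and 156 fresh, and 205 and 230, 208 and 209, and 182 and 192 at 3, 5.5 and 11 mM. C1qc read 71 and 97 fresh, and 178 and 136, 184 and 139, and 172 and 182 in culture. For C1qb and C1qc, all 6 cultured old arrays were above both fresh old arrays, but the changes against fresh did not pass. At 11 mM the changes were 0.49 for C1qa (SE 0.27, adjusted p = 0.518), 0.26 for C1qb (SE 0.39, 0.895) and 0.96 for C1qc (SE 0.50, 0.475).

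The spread of C1qb and C1qc on the arrays of set B enters these SEs. In the fit with only the arrays of set A, C1qc rose at 11 mM (0.96, adjusted p = 0.00902), 5.5 mM (0.83, 0.0102) and 3 mM (0.79, 0.00676), where 3.54%, 9.68% and 17.1% of all genes rose. In that fit C1qb rose at 3 mM (0.46, adjusted p = 0.0211). C1qa went the other way at 3 mM, where it read 524 and 367 and fell by 0.88 (SE 0.27, adjusted p = 0.0239). That call was lost without replicate 2 at 3 mM (-0.63, adjusted p = 0.214) or replicate 2 of the fresh group (-0.66, 0.203). The other 2 probe sets of C1qb changed by 0.48 and 0.99 at 11 mM.

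In young islets at 11 mM against fresh the C1q genes changed by -0.06 (C1qa, SE 0.23), -0.03 (C1qb, SE 0.34) and -0.04 (C1qc, SE 0.43), with adjusted p of 0.899 to 0.966. C1qa read 629 and 501 fresh and 536, 383, 774 and 530 at 11 mM, C1qb 127 and 143 against 137, 93, 135 and 174, and C1qc 77 and 71 against 132, 57, 71 and 47. Fresh and cultured arrays overlapped for all 3 genes. With the array set as a block the changes were 0.19, 0.17 and -0.28.

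Csf1r changed in old islets by -0.10 (SE 0.41, adjusted p = 0.966) at 11 mM, -0.16 at 5.5 mM and -0.21 at 3 mM, and passed at none of the 3. It read 416 and 406 in fresh old islets and 399 and 314, 381 and 350, and 417 and 348 at 3, 5.5 and 11 mM, where the fresh and 11 mM arrays overlapped. The other 2 probe sets of Csf1r changed by -0.09 and 0.23 at 11 mM. In young islets it read 490 and 417 fresh and 195, 114, 335 and 285 at 11 mM, so that all 4 cultured arrays were below both fresh ones. The change of -1.01 (SE 0.35) did not pass (adjusted p = 0.0875). With only the arrays of set A it was -0.53 and passed (adjusted p = 0.0474, where 3.07% of genes fell). With the array set as a block it was the same -0.53 and did not pass (adjusted p = 0.506). It passed without replicate 3 or 4 at 11 mM (-1.21 and -1.14, adjusted p = 0.0239 and 0.036).

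Within each array, the mean log2 signal of the 4 class II genes minus that of the C1q genes and Csf1r was set to 0 in fresh islets of the same age. It was -2.55 ± 0.19 (SD, n = 2) in old islets at 11 mM, -2.32 ± 0.21 at 5.5 mM and -2.15 ± 0.47 at 3 mM. In young islets it was -1.70 ± 0.27 (n = 4) at 11 mM, with a mean of -1.52 in set A and -1.88 in set B. The young cultures of set B gave -1.54 ± 0.04 at 3 mM, -1.94 ± 0.10 at 5.5 mM and -1.81 ± 0.08 at 16 mM. The time course gave -1.20 ± 0.39, -1.29 ± 0.28 and -1.06 ± 0.42 at 0, 1 and 4 h. On its arrays H2-Eb1 read 30 to 36, near the array medians of 29 to 34. C1qb, C1qc and Csf1r had their lowest group means there, so a smaller difference need not mean a smaller class II loss. The fresh arrays, all of set A, lay between -0.03 and 0.03. The cultured array nearest to them, of set B, lay at -0.76. This difference is a description and carries no test, since the genes were grouped with results of these data known. It also moves with the genes subtracted. Between 3 and 11 mM in old islets C1qa rose by 1.37, while the class II genes differed by at most 0.20. The order by glucose is therefore not a measure of class II loss.

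**Figure D3:**
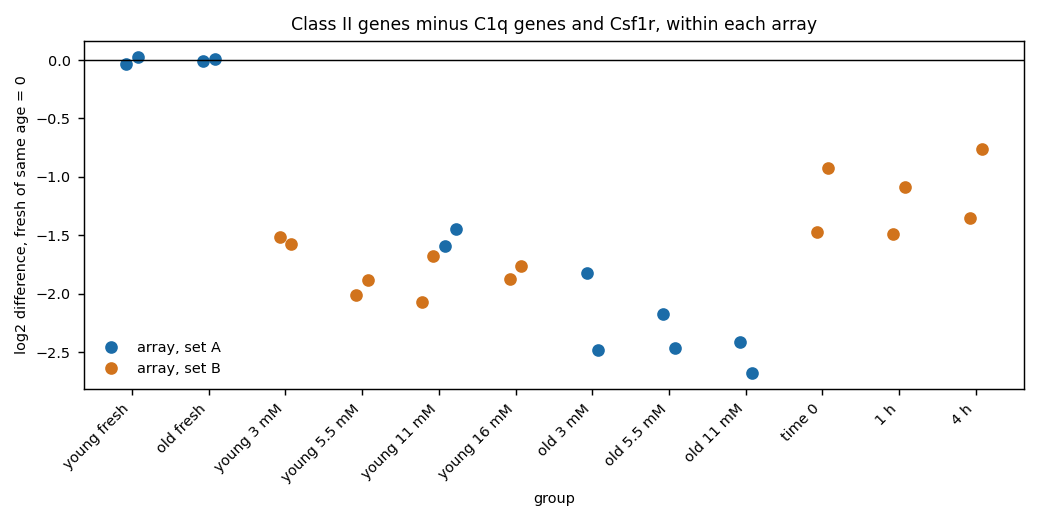
Mean log2 of the 4 class II genes minus that of C1qa, C1qb, C1qc and Csf1r on each array, with fresh islets of the same age set to 0, by group (1 point per array, colours for the array sets). The 22 cultured arrays lie between -2.68 and -0.76, below the 4 fresh arrays at -0.03 to 0.03.

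Cd68 ran opposite to the class II genes. It read 29 and 30 in fresh young and 29 and 47 in fresh old islets, and 166 and 188, 148 and 170, and 151 and 160 in old islets at 3, 5.5 and 11 mM. Cd68 lay above the array median on no fresh array but old replicate 2, so the size of its rise is uncertain. It rose by 1.69 (SE 0.30, adjusted p = 0.00195, 3.23-fold) at 11 mM, by 1.71 at 5.5 mM and by 1.86 at 3 mM. At 11 mM it did not pass without replicate 1 of the fresh group (1.44, adjusted p = 0.0637). Young islets at 11 mM read 123, 69, 97 and 44, a rise of 1.06 (SE 0.26, adjusted p = 0.0171). That call was lost with the array set as a block (0.86, adjusted p = 0.102), with only the arrays of set A (0.86, 0.0658) and without either fresh array (0.115 and 0.14). The 6 time course arrays were at 140 to 201 and overlapped the old cultures. Mrc1 was dim, between 9 and 61 and above the array median on 2 arrays alone, and it passed in no comparison with fresh islets (0.02, SE 0.28, adjusted p = 0.994 in old islets at 11 mM).

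Some other macrophage genes rose in old culture, where 1.03% of all genes rose at 11 mM. At 11 mM against fresh, 3 of the 29 tested macrophage identity genes rose and no gene of the list fell (median 0.26): the beta-glucan receptor gene Clec7a (2.01, SE 0.44, adjusted p = 0.0127), Ms4a7 (1.24, SE 0.29, 0.0212) and the chemokine gene Pf4 (1.25, SE 0.32, 0.0364). Clec7a read 46 and 63 fresh and 278 and 254 at 11 mM. All 3 calls were lost whichever of the 4 arrays was left out (adjusted p = 0.055 to 0.335). At 5.5 mM 3 of the 29 rose and at 3 mM 5 rose, where 4.06% and 10.9% of all genes rose. The gene that fell at both was Lyve1, a hyaluronan receptor of some macrophages and of lymphatic endothelium (-0.76, SE 0.21, adjusted p = 0.0308 at 5.5 mM, and -1.45, SE 0.21, adjusted p = 7.62e-05 at 3 mM). At 5.5 mM the call of Lyve1 was lost whichever array was left out (0.0563 to 0.283). Adgre1, which encodes F4/80, read 85 and 91 fresh and 92 and 98 at 11 mM, and the leukocyte gene Ptprc 138 to 206 fresh and 102 to 121 at 11 mM. The macrophage genes Lyz2 and Tyrobp read 244 to 349 and 116 to 130 fresh, against 852 to 997 and 292 to 313 at 11 mM. Neither was called in the fit over all arrays, whose SEs include the spread of set B. Both were named after their values were seen. Of 25 activation and lysosome genes, 2 rose: the macrophage elastase gene Mmp12 (2.73, SE 0.43, adjusted p = 0.000688; 25 and 15 against 238 and 205) and the heme oxygenase gene Hmox1 (2.42, SE 0.45, adjusted p = 0.00331; 1.97 and adjusted p = 0.109 without fresh replicate 1). Mmp12 and Hmox1 lay below the array median on both fresh old arrays, so the size of their rise is uncertain. The summed signal of the 35 macrophage identity genes was 2099 to 2594 in fresh old islets and 3605 to 3859 at 11 mM. In young islets it was 2019 to 2124 fresh and 1885 to 3097 at 11 mM, where 1 of the 29 rose (Clec7a, 1.38, SE 0.38, adjusted p = 0.0342) and the median was -0.04. That call of Clec7a was lost without either fresh array (0.1 and 0.285) or without replicate 1 at 11 mM (0.057). With only the arrays of set A, 2 of the 29 rose in young islets and the median was 0.19, where 2% of all genes rose. Of the 11 complement genes tested apart from C1q none passed in old islets at 11 mM (limma, median 0.22).

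Some markers of other cells that can carry class II molecules fell in the same comparison. Of 7 tested B cell genes, 2 fell in old islets at 11 mM, with a median of -0.55: Jchain, of secreted antibody (-3.30, SE 0.74, adjusted p = 0.0149), and Ms4a1, which encodes CD20 (-1.92, SE 0.39, 0.00558). Jchain read 80 and 1184 in fresh old, 7 and 110 in fresh young, and 14 to 28 in islets at 11 mM of either age. Without replicate 2 of the fresh old group neither passed (-1.48 and adjusted p = 0.336 for Jchain, -1.52 and 0.134 for Ms4a1). Leaving out replicate 1 at 11 mM ended both calls too (0.104 and 0.0606), as did leaving out replicate 2 at 11 mM for Jchain (0.103). On fresh young replicate 1, where Jchain read 7 and Ms4a1 14, H2-Aa read 1580, and on fresh young replicate 2, with 110 and 86, it read 1456. On fresh old replicates 1 and 2, where Jchain read 80 and 1184, H2-Aa read 1902 and 2246. Whether these genes go together was not tested. The summed signal of 9 B cell genes was 399 and 1715 in fresh old, 318 and 598 in fresh young and 209 to 273 in islets at 11 mM. Cd79a, a defining marker, did not pass at 11 mM in old (-0.18, SE 0.44, adjusted p = 0.938) or young islets (-0.22, SE 0.38, adjusted p = 0.742). It read 26 on both fresh young arrays, 21 to 28 on all 4 fresh arrays and 29 to 68 on the young glucose cultures of set B.

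Of 4 tested dendritic cell genes Cd83 fell in old islets (-1.20, SE 0.30, adjusted p = 0.029; 67 and 88 against 26 and 23), a call that was lost whichever of the 4 arrays was left out (0.0941 to 0.254). Of the 11 measured dendritic cell genes 7 were above the array median on no array, among them Flt3 and Xcr1. Itgax, which encodes CD11c of dendritic cells and islet macrophages, read 33 and 30 in fresh old islets and 58 and 69 at 11 mM, and rose with only the arrays of set A (0.74, adjusted p = 0.0396). Cd3e, of T cells, read at most 22, and of the 4 tested macrophage growth factor genes none passed (limma). Of the endothelial genes 8 of 10 fell in old and all 10 in young islets at 11 mM, with medians of -1.72 and -2.01. Kdr, a receptor for VEGF, read 539 and 458 in fresh old islets and 39 and 25 at 11 mM (-3.43, SE 0.28, adjusted p = 1.26e-07). The summed signal of 12 endothelial genes was 3251 and 3261 in fresh old islets and 596 to 678 at 11 mM. Acinar genes had the largest falls of these lists at 11 mM, with medians of -6.58 in old and -4.59 in young islets. All 10 fell in old and 9 of 10 in young islets. Of 13 endocrine genes none passed in old islets at 11 mM and 1 fell in young islets. In old islets against fresh, 2 of the 13 fell at 5.5 mM and 6 fell at 3 mM, with medians of -0.36 and -0.31. The part of B cells, dendritic cells and endothelial cells in the fall of the class II genes was not tested.

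**Figure D4:**
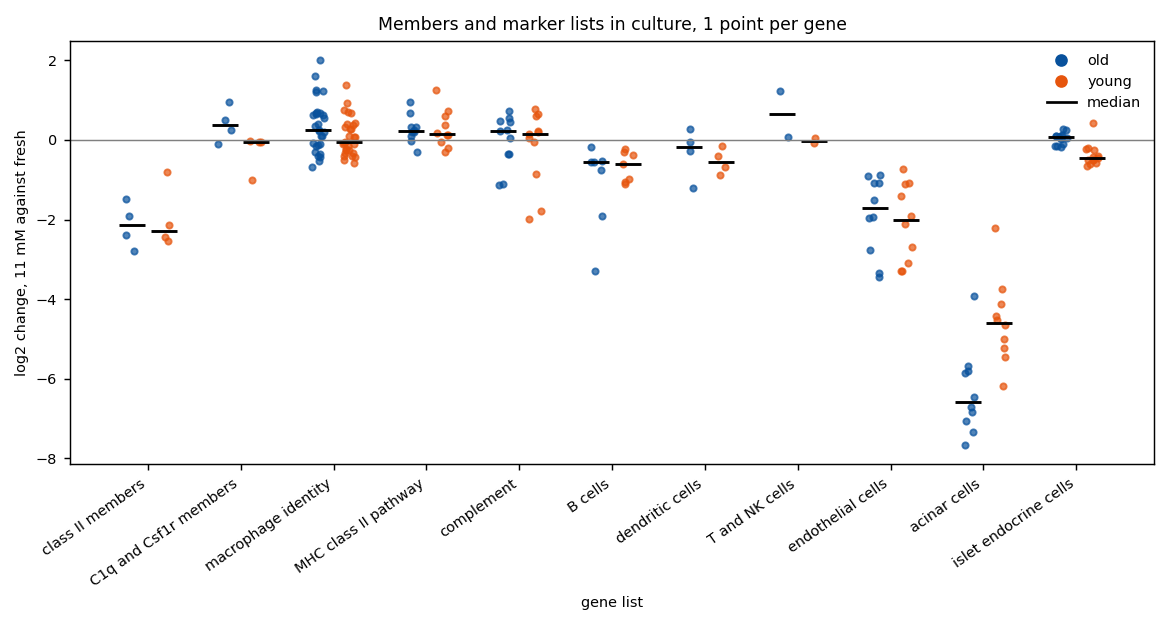
Log2 change at 11 mM against fresh islets for each tested gene (1 point per gene, blue old, orange young, bar at the median) of the class II genes, the C1q genes with Csf1r, and lists of pathway and cell type marker genes that leave out the 10 genes. The medians are -2.15 and -2.28 for the class II genes, 0.37 and -0.05 for the C1q genes with Csf1r, 0.26 and -0.04 for macrophage identity and -1.72 and -2.01 for endothelial cells (old and young). The young values use arrays of both sets. With only set A the young medians are 0.19 for macrophage identity and -1.62 for endothelial cells.

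The glucose concentration moved C1qa and none of the class II genes. In young islets C1qa read 136 and 161 at 3 mM, 270 and 387 at 5.5 mM, 536, 383, 774 and 530 at 11 mM and 426 and 417 at 16 mM. In old islets it read 524 and 367, 749 and 558, and 1180 and 1136 at 3, 5.5 and 11 mM. It rose by 1.76 (SE 0.23, adjusted p = 2.72e-05, 3.39-fold) at 11 against 3 mM in young islets, where 14.2% of all genes rose. It rose by 1.37 (SE 0.27, adjusted p = 0.00227, 2.58-fold) in old islets, where 7.76% rose, and by 1.42 (SE 0.27, adjusted p = 0.00117, 2.68-fold) at 16 against 3 mM in young islets, where 9.29% rose. With the array set as a block, which compares replicates 1 and 2 at 11 mM with 3 mM, the young rise was 1.52 (adjusted p = 0.000104). These shares of all genes are large, and C1qa was 1 of many genes that rose with glucose.

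C1qb and C1qc, whose genes are the neighbours of C1qa on the chromosome, did not rise with it. At 16 against 3 mM they changed by -0.50 (SE 0.39, adjusted p = 0.431) and -0.61 (SE 0.50, 0.457). C1qb read 133 and 131 at 3 mM and 108 and 72 at 16 mM, and C1qc 136 and 92 against 117 and 37. With a replicate block and the array set in the model, both fell (adjusted p = 0.0118 and 0.0495), where 17.8% of all genes fell. At 11 against 3 mM C1qb changed by 0.00 in young and -0.20 in old islets and C1qc by -0.55 and 0.17, and neither passed. No other of the 10 genes passed in these comparisons. H2-Aa changed by -0.16 (SE 0.46) at 16 against 3 mM and by 0.68 (SE 0.40, adjusted p = 0.204) at 11 against 3 mM in young islets. It passed at 11 mM without replicate 2 of that group (0.98, adjusted p = 0.0431), where the arrays of set A weigh more, and was at 0.12 with the array set as a block. Without replicate 1 at 11 mM Cd68 passed as lower at 11 than at 3 mM (-0.77, adjusted p = 0.0175, against -0.59 and 0.0926 with all arrays).

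**Figure D5:**
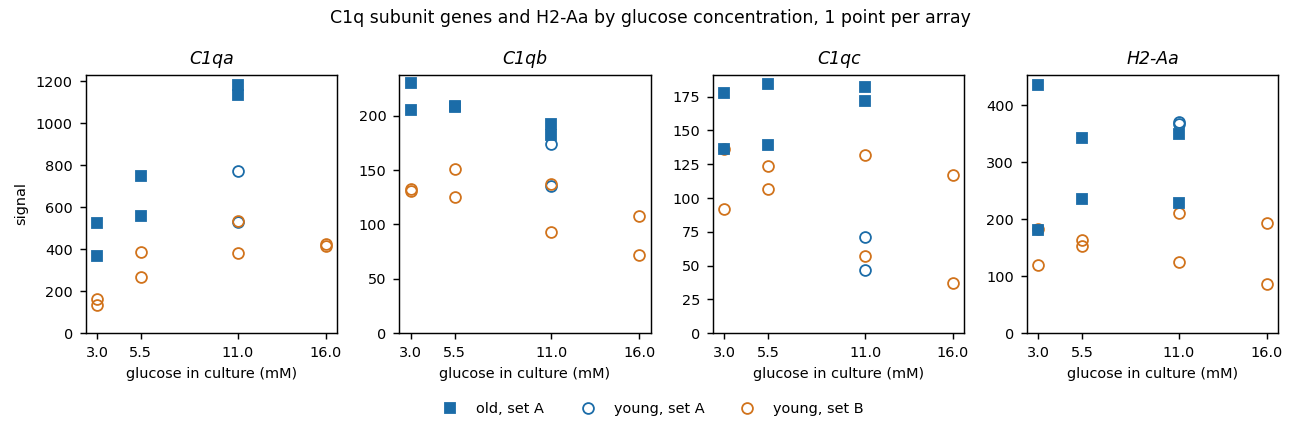
Signal of C1qa, C1qb, C1qc and H2-Aa on each array of cultured islets by glucose concentration (mM), with squares for old and circles for young islets and colours for the array sets. C1qa goes from 136 and 161 at 3 mM to 417 and 426 at 16 mM in young islets and from 367 and 524 to 1136 and 1180 at 11 mM in old islets, while the other genes show no such order.

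Fresh islets of both ages, all on arrays of set A, were compared with 2 arrays each, so that small differences could go unseen. None of the 10 genes passed between fresh old and young islets (limma, 2.11% of all genes passed), and 1 had an unadjusted p under 0.05, Cd74, with 219 and 256 against 141 and 131 (0.73, SE 0.25, adjusted p = 0.141). Cd74 passed with only the arrays of set A (adjusted p = 0.0471, where 6.45% of genes were higher). H2-Aa differed by 0.44 (SE 0.46), H2-Ab1 by 0.26 (SE 0.40) and H2-Eb1 by 0.51 (SE 0.32), each with both old arrays above both young arrays. Of the macrophage identity list none of 29 passed (limma, median 0.10).

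At 11 mM C1qa was higher in old than in young islets, and it was the 1 gene of the 10 to pass, with 3.48% of all genes higher. It read 1180 and 1136 against 383 to 774, a difference of 1.08 (SE 0.23, adjusted p = 0.0108). The call was lost without replicate 1 or 2 of the old group (1.05 and 1.11, adjusted p = 0.0793 and 0.0988). With the array set as a block C1qa differed by 0.84 (adjusted p = 0.0212) and Cd68 passed as well (1.06, 0.0145), where 10% of genes were higher. In set A alone C1qc passed too (1.38, adjusted p = 0.00059, against 0.115 with all arrays), where 10.9% were higher. Cd68 stood at 0.86 (adjusted p = 0.0515) with all arrays and passed without replicate 1 or 3 of the young group (0.0179 and 0.0325). None of the class II genes passed, with H2-Aa at 0.19 (SE 0.40), H2-Ab1 at 0.48 (SE 0.35), H2-Eb1 at 0.56 (SE 0.28) and Cd74 at 0.06 (SE 0.21). Blocked by array set they stood at -0.36 (SE 0.37), -0.06 (SE 0.31), 0.20 (SE 0.27) and 0.14 (SE 0.24), so that the sign turned for H2-Aa and H2-Ab1, and none of the 4 passed.

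The change in culture was tested for a difference between the ages. None of the 10 genes passed, none of the 10 had an unadjusted p under 0.05, and 0% of all genes passed (limma, 924 genes at an unadjusted p under 0.05). The fall of H2-Aa differed by -0.25 (SE 0.61, old minus young), that of H2-Eb1 by 0.05 (SE 0.42), that of Cd74 by -0.68 (SE 0.33, adjusted p = 0.677) and the change of Csf1r by 0.91 (SE 0.54, adjusted p = 0.71). In the fit blocked by array set H2-Aa differed by -0.81 (SE 0.53), H2-Ab1 by -0.32 (SE 0.45, against 0.22 with no block), H2-Eb1 by -0.32 (SE 0.38) and Csf1r by 0.42 (SE 0.47). None of the 10 passed there, and 3 of the 12580 genes did. For the 10 genes a difference between the ages was not detectable with these errors.

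From time 0 to 1 h and 4 h at 11 mM none of the 10 genes passed, and none of the 10 had an unadjusted p under 0.05 (limma). Of all genes, 0.0636% passed at 1 h and 4.94% at 4 h. C1qa read 280 and 259 at time 0, 290 and 203 at 1 h and 229 and 159 at 4 h (-0.46, SE 0.27, adjusted p = 0.446 at 4 h). For C1qb, C1qc and Csf1r the replicates stood further apart than the times did. C1qb read 78, 66 and 85 on replicate 1 and 22, 23 and 27 on replicate 2 at 0, 1 and 4 h. C1qc read 66, 69 and 42 against 13, 24 and 10, and Csf1r 97, 96 and 81 against 37, 47 and 40. Replicate 2 was lower at all 3 times for H2-Aa and H2-Ab1 too, and for the macrophage genes Lyz2 (134, 126 and 124 against 42, 61 and 55), Tyrobp, Ctss and Laptm5, which were chosen after their values were seen. Cd68 was higher on replicate 2 at all 3 times, at 194, 201 and 171 against 148, 184 and 140.

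Each array was also set against the mean of its group. Over 26 arrays in 12 groups, the deviations of Csf1r correlated with those of H2-Aa at r = 0.89, H2-Ab1 at 0.82, H2-Eb1 at 0.55 and Cd74 at 0.39. With C1qb, C1qa and C1qc r was 0.83, 0.65 and 0.64, with Lyz2 and Tyrobp 0.93 and 0.90, with Mrc1 0.31 and with Cd68 -0.09. These arrays share sets and replicate numbers, and the values are a description. Across the 12 group means, which also differ by array set, the class II genes correlated with one another at 0.72 to 0.99 and the C1q genes with Csf1r at 0.78 to 0.92, the class II genes with the C1q genes at -0.16 to 0.69, with Csf1r at 0.28 to 0.83 and with Cd68 at -0.83 to -0.66.

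By the order of group means, H2-Aa, H2-Ab1, H2-Eb1 and Cd74 were highest in fresh old and then fresh young islets, which stood apart from each other and from the next group, and from the third place down neighbouring groups overlapped for H2-Aa and H2-Ab1. C1qa was highest in old islets at 11 mM, apart from fresh old islets in the next place, and lowest in young islets at 3 mM. C1qb and C1qc were highest in the 3 old cultures and, like Csf1r, lowest in the 3 time course groups. Cd68 was lowest in the 2 fresh groups, which overlapped. Among the genes tested, the 10 themselves left out, those whose 12 group means correlated best with H2-Ab1 were Klhl5 (r = 0.963), Atp2b4 (0.961), Lamb2 (0.96), Gpihbp1 (0.959) and Pdgfd (0.956). For C1qb they were Laptm5 (0.966), P3h4 (0.956), Rps15 (0.952), Micos13 (0.952) and Iscu (0.948).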

How the data were processed

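Each deposited value is the linear intensity of a probe set, computed in MAS5 (version not given in the sources used here), per the submitters' processing notes. The trimmed mean, without the top and bottom 2%, is 150 on all arrays, which had thus been scaled to one another. The number of arrays limits the precision. Of 45101 probe sets 34945 have 1 symbol, and the 932 with several were not used. Intensities were transformed as log2(value + 16). A probe set was kept where 2 or more of the 26 arrays put it above their median, and the brightest stood for each gene (12580 genes). limma 3.58.1 in R 4.3.3 fitted 12 group means over all arrays with an intensity trend (14 residual and 5.33 prior degrees of freedom), and p-values were adjusted by Benjamini-Hochberg within each of 12 comparisons. The pipeline was tested on simulated data.

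The genes, lists and comparisons were chosen with earlier results of these data known. The text names the 10 genes, up to 4 called genes of each list with the smallest p for old islets at 11 mM against fresh and for fresh old against young, and fixed markers (Ciita, H2-Ea, Adgre1, Itgam, Itgax, Ptprc, Cd163, Cd79a, Cd3e). It adds the 5 genes most like H2-Ab1 and C1qb in their group means. Other list genes were named after their values were seen. The alternatives are another offset, no filter, quantile normalization, the mean of probe sets, no variance trend, the array set as a block or set A alone, a replicate block with the array set, and leaving out each array. Same-numbered arrays deviated together in cultured young islets (correlations 0.169 to 0.417 over 6 pairs) and the time course (0.551 to 0.63 over 3), where the numbers were taken to pair them, and less so in old islets (0.0556 to 0.196 over 6).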

Additional observations from a re-analysis of the deposited data

How the results depend on the processing

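For the 10 genes, 104 of 1640 values under the alternatives run turned their sign, and none of these 104 passed in either setting. The count of genes that passed out of the 10 moved by more than 1.5 times in these cases. For old against young islets at 11 mM it was 1, but 2 with an offset of 64, 2 with the array set as a block, 3 with set A alone and 3 with a replicate block and the array set. For fresh old against young islets it was 0, but 1 with set A alone and 1 with the replicate block (Cd74, 0.73, adjusted p = 0.0172). For 16 against 3 mM it was 1, but 3 with the replicate block. Leaving out 1 array gave 3 to 4 for old islets at 11 mM, 4 to 5 at 5.5 mM and 4 to 6 at 3 mM against fresh, 3 to 6 for young islets at 11 mM against fresh, 0 to 2 between the ages at 11 mM and 1 to 2 for young islets at 11 against 3 mM. The class II minus C1q difference was -2.16 in old and -1.39 in young islets with an offset of 64, which by construction shrinks changes of dim genes; with it Cd68 rose by 1.11 in old and 0.63 in young islets at 11 mM. Csf1r in young islets passed with that offset (-0.87, adjusted p = 0.049). For the 10 genes, 1018 of the values under other settings kept their side of the threshold, 20 passed newly and 2 no longer passed; of those with 1 array left out, 578 kept it, 6 passed newly and 16 no longer passed. In old islets, whose arrays share only a number, the replicate block made C1qc pass against fresh (adjusted p = 0.0104 to 0.014) and C1qb at 3 mM (0.0182). Of other genes, Pdgfrb between fresh old and young islets came to 0.01 when its probe sets were averaged, against -0.88. The cause of these shifts was not tested.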
